A study of Mus musculus with 6 samples.

Results

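The Dlk1-Dio3 imprinted locus of the mouse carries a long series of miRNA hairpins, and its mature miRNAs were examined here in the liver. The members were chosen by name, as the mouse miRNAs whose number belongs to this locus and whose mean level over all libraries was above 0. There were 62 of them among the 1039 mature miRNAs of the table, from 40 hairpin genes, and 38 of the 51 numbers searched had an entry. Small RNA of the liver was sequenced in 6 mice, 3 in the J group and 3 in the M group, with a library for each mouse. All 6 were wild type ICR mice, an outbred stock, aged 30 weeks. After a period of adaptive feeding as adults, they were fed a high-fat diet (HFD) for the rest of the experiment. After 12 weeks of HFD, the J group received JTXK granule, a Chinese herbal compound used for diabetes, by gavage for 8 weeks. The M group received sterile water over the same 8 weeks, and no mice on standard diet are among these libraries, so both groups carry the diet.

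The locus holds the protein-coding genes Dlk1, Rtl1 and Dio3, which are expressed from the paternal chromosome, and the non-coding RNAs Meg3, Rian and Mirg, which are expressed from the maternal chromosome together with the miRNAs. The non-coding RNAs and the miRNAs are thought to derive from long transcripts that read through the region, and methylation of an intergenic control region sets which parental copy is active. These miRNAs are abundant in the embryo, placenta and brain and low in most adult tissues. In the newborn mouse, loss of the cluster from miR-379 to miR-410 disturbs the supply of glucose by the liver.

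Mature sequences of 60 of the 62 members were found in RefSeq (GRCm38.p6). The 10 most abundant members are shown because they carried most of the reads of the locus. Each is written 5′ to 3′ with the seed, bases 2 to 8 and the main determinant of target choice, in capitals.
mmu-miR-127-3p: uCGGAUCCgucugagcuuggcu
mmu-miR-409-5p: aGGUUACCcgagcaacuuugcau
mmu-miR-541-5p: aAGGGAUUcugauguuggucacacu
mmu-miR-434-5p: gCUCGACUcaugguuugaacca
mmu-miR-379-5p: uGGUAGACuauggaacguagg
mmu-miR-411-5p: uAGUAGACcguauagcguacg
mmu-miR-300-3p: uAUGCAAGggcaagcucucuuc
mmu-miR-381-3p: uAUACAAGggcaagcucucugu
mmu-miR-434-3p: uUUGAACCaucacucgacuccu
mmu-miR-409-3p: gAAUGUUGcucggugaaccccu

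Among the 60 sequences there were 59 different seeds, so that nearly every member had a seed of its own. The shared seed, AUGUAAC, belonged to mmu-miR-379-3p and mmu-miR-411-3p. Several further seeds differed at a single base. The first-named base below is that of the first-named miRNA, and positions are counted from 1 at the 5′ end of the mature sequence. mmu-miR-411-5p and mmu-miR-379-5p differed by A2G, mmu-miR-381-3p and mmu-miR-300-3p by A4G, and mmu-miR-376b-3p and mmu-miR-376a-3p by A4G. The next sequences are shown because they resembled another member closely, and they include mmu-miR-495-3p, the member that met the thresholds of the study in the comparison of the groups.
mmu-miR-379-3p: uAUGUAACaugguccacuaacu
mmu-miR-411-3p: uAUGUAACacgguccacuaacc
mmu-miR-543-3p: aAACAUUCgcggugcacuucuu
mmu-miR-495-3p: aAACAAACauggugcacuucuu

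mmu-miR-379-3p and mmu-miR-411-3p differed at 2 bases over their length, mmu-miR-300-3p and mmu-miR-381-3p at 3, mmu-miR-376a-3p and mmu-miR-376b-3p at 3, and mmu-miR-495-3p and mmu-miR-543-3p at 4. The rule for reads that match more than 1 miRNA is not given in the sources used here, so the split of reads within these pairs is uncertain.

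The member hairpins lay on the plus strand of chromosome 12, at chr12:109571990-109743795 of GRCm38.p6, a span of 172 kb. In the GENCODE annotation of GRCm38, Meg3 ends just before them (chr12:109541001-109571726). Of the hairpins, 5, from Mir673 to Mir665, lay downstream of Meg3 and are called the Meg3 side. Mir431, Mir433, Mir127, Mir434 and Mir136 lay opposite an exon of Rtl1 (chr12:109589193-109600330, minus strand). Mir341 and Mir370 lay in an intron of Rian (chr12:109603940-109661716). The remaining 28 hairpins formed the Mirg side, which began between annotated genes at Mir379 (chr12:109709060-109709125) and ran into Mirg (chr12:109729764-109749460) as far as Mir410 (chr12:109743715-109743795). Within Mirg, Mir409 and Mir541 were intronic, whereas Mir410, Mir134, Mir382 and Mir377 overlapped an exon.

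The values are RPM, the reads of a miRNA per 1000000 miRNA reads of its library. The libraries held 2626353 to 4314134 miRNA reads, and 3 reads, the upper limit that a count of 0 allows, corresponded to 0.695 to 1.14 RPM. The hepatocyte miRNAs miR-122, miR-192 and miR-194 summed to 329233 to 379981 RPM in all 6 libraries, so the miRNAs that define hepatocytes were abundant throughout. Over all 548 miRNAs tested, M group replicate 1 was set apart by the component with the largest share of the variance (56.5%). Values without this library are given beside the comparison of the groups.

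The Dlk1-Dio3 miRNAs were rare in these livers. Together the 62 members held between 0.0396% and 0.227% of a library's miRNA reads. The sum was 449.9 RPM in J group replicate 1 (95% Wilson interval 430.3 to 470.4), 396 RPM in replicate 2 (376.3 to 417.5) and 2271 RPM in replicate 3 (2216 to 2328). In the M group it was 645 RPM in replicate 1 (615 to 677), 1154 RPM in replicate 2 (1118 to 1191) and 746 RPM in replicate 3 (721 to 772). These intervals account for the counting of reads alone, because reads copied by PCR were not separated from independent molecules. J group replicate 3 was therefore far above every other library, and J group replicates 1 and 2 were below every M library. The sum in J group replicate 3 was 3.52 times the median of the other 5 libraries and 1.97 times the next highest, while those 5 spanned a 2.91-fold range.

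The group means were close and the spread within the J group was wide. The mean sum of the J group was 1039 ± 1067 RPM (SD, n = 3). That of the M group was 848 ± 269 RPM (SD, n = 3), and the log2 ratio of J to M was 0.29. The SD of the J group exceeded its mean. Without J group replicate 3 the log2 ratio was -1.004, with the M mean 2.01 times the J mean. Without M group replicate 1 it was 0.13. A sum over members gets no test here, and J group replicate 3 was singled out after its values were seen.

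**Figure D1:**
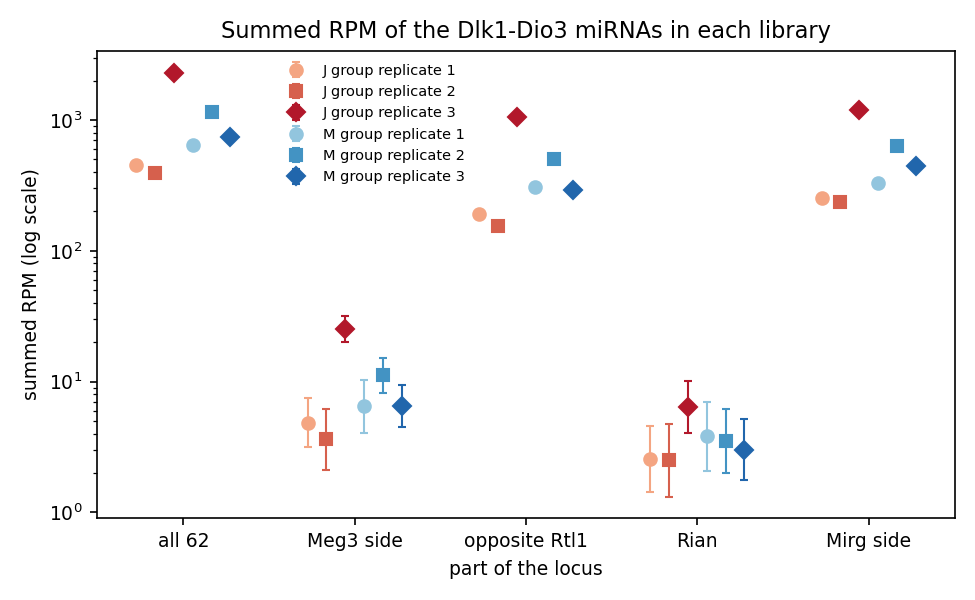
Summed RPM (log axis) of all 62 Dlk1-Dio3 miRNAs and of the 4 stretches of the locus, 1 point per library with 95% Wilson intervals of the counts. J group replicate 3 was the highest library in every stretch, and for all members it reached 2271 RPM against 396 to 1154 RPM in the other 5.

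The same library was the highest in each stretch of the locus. On the Meg3 side, where mmu-miR-665-3p, mmu-miR-337-5p, mmu-miR-540-3p and mmu-miR-673-5p were tested, the 7 members summed to 25.3 RPM in J group replicate 3 and to 3.63 to 11.1 RPM in the other 5 libraries. The 9 members opposite Rtl1 summed to 1050.2 RPM against 155 to 501 RPM. The 2 members in Rian were at 6.42 RPM against 2.51 to 3.81 RPM, and their Wilson intervals overlapped, as 4.06 to 10.1 RPM in J group replicate 3 reached into 2.07 to 7.01 RPM in M group replicate 1. The 44 members of the Mirg side summed to 1189 RPM against 235 to 638 RPM. J group replicate 3 thus stood at 3.91, 3.62, 2.12 and 3.61 times the median of the other libraries in the order of the chromosome, with the smallest shift in Rian.

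By hairpin, with the listed arms added up, J group replicate 3 was the highest library for 35 of the 40 hairpins, and for 24 of the 27 with a mean above 1 RPM over the other 5 libraries. The 5 exceptions were Mir380, Mir495, Mir376a, Mir496a and Mir410, all on the Mirg side. On this side Mir379, Mir411, Mir300, Mir541 and Mir409 were the most abundant hairpins in every library, and Mir127 was the highest hairpin of the whole locus.

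**Figure D2:**
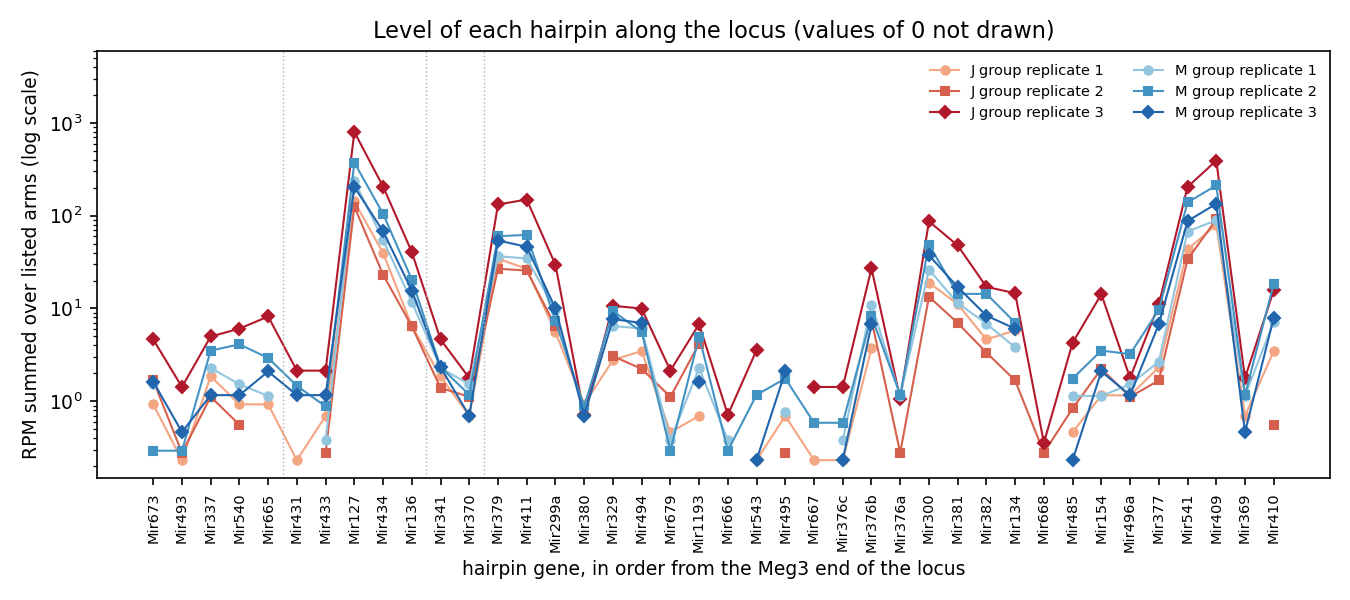
RPM of each of the 40 hairpins (log axis, arms added up) in order along the chromosome, 1 line per library, with dotted lines between the Meg3 side, the hairpins opposite Rtl1, Rian and the Mirg side. The lines share their high points at Mir127, Mir379, Mir411, Mir300, Mir541 and Mir409 and cross among the rare hairpins, and the line of J group replicate 3 is on top at 35 of 40 hairpins.

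Opposite Rtl1, mmu-miR-127-3p was the most abundant member. It is perfectly complementary to the Rtl1 transcript, which it can cleave, and Rtl1 is a retrotransposon-derived gene needed in the placenta. Its level was 139, 125 and 790.0 RPM in J group replicates 1 to 3 and 236, 369.99 and 202 RPM in M group replicates 1 to 3. The groups overlapped through J group replicate 3 alone, and the log2 fold change was -0.12 (SE 0.69, adjusted p = 0.969, limma with Benjamini-Hochberg adjustment). mmu-miR-434-5p, from the next hairpin and also opposite Rtl1, was at 33.8, 17.0 and 159 RPM in the J group and 46.1, 90.005 and 58.2 RPM in the M group. The other arm of the same hairpin, mmu-miR-434-3p, was at 5.79, 6.14 and 47.8 RPM in the J group and 8.76, 14.7 and 9.78 RPM in the M group. Both arms of Mir434 therefore followed the order seen for mmu-miR-127-3p, with J group replicates 1 and 2 below every M library and replicate 3 above them all.

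On the Mirg side, mmu-miR-409-5p was at 74.4, 89.6 and 362 RPM in the J group and 83.0, 199.9 and 124 RPM in the M group. Here J group replicate 2 exceeded M group replicate 1, so the lower J libraries and the M libraries overlapped too. From the neighbouring hairpin, mmu-miR-541-5p was at 43.3, 33.8 and 204 RPM in the J group and 67.4, 138 and 87.5 RPM in the M group. The rarer arm, mmu-miR-409-3p, was at 5.10, 1.67 and 30.3 RPM in the J group and 6.47, 12.3 and 10.5 RPM in the M group. J group replicate 2 had 6 reads of this arm and J group replicate 3 had 85.

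mmu-miR-379-5p, the first miRNA of the Mirg side, has been linked to glucocorticoid control of triglyceride handling in the liver. It was at 33.4, 26.5 and 123 RPM in the J group and 34.6, 57.2 and 52.4 RPM in the M group. Its neighbour mmu-miR-411-5p, whose seed differs from it by a single base, was at 22.5, 20.9 and 126.6 RPM in the J group and 30.8, 56.0 and 41.0 RPM in the M group. The pair was lowest in J group replicate 2 and highest in J group replicate 3. mmu-miR-300-3p was at 19.0, 13.4 and 87.0 RPM in the J group and 26.3, 48.7 and 37.5 RPM in the M group. Its relative mmu-miR-381-3p was at 11.1, 6.98 and 47.8 RPM in the J group and 11.4, 14.4 and 17.0 RPM in the M group. In each of the 10 most abundant members J group replicate 3 was the highest library, at 3.03 to 5.45 times the median of the other 5.

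**Figure D3:**
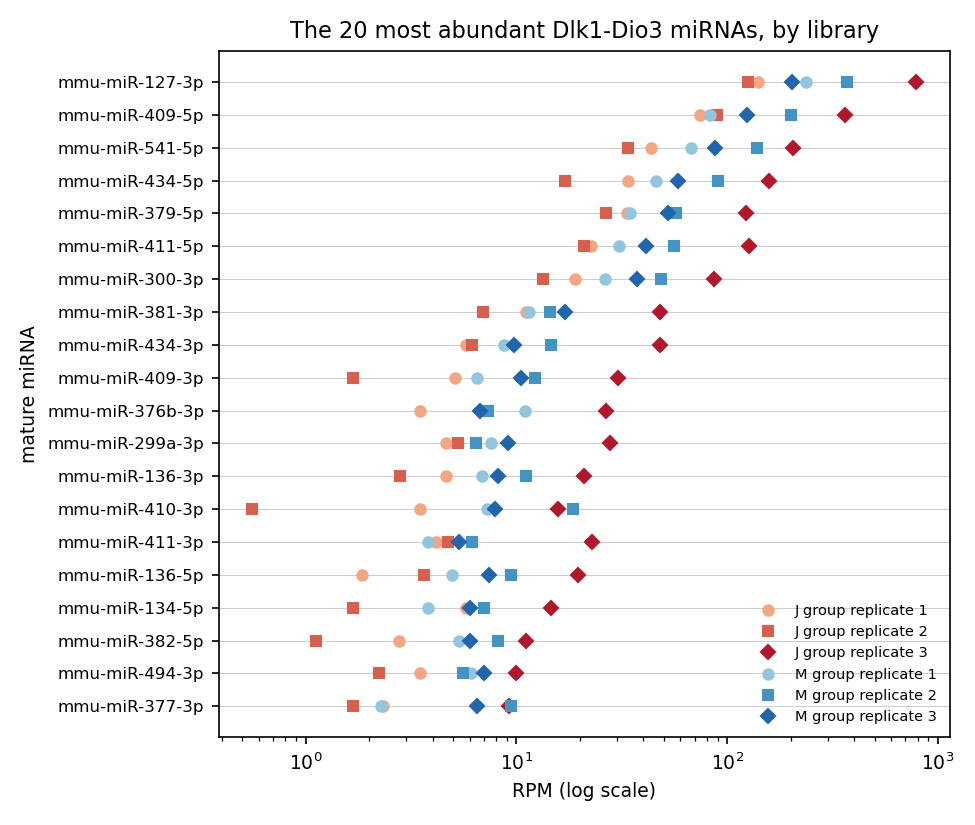
RPM (log axis) of the 20 most abundant Dlk1-Dio3 miRNAs, 1 point per library. J group replicate 3 stands at 1.79 to 5.45 times the median of the other libraries, and mmu-miR-410-3p and mmu-miR-377-3p are the miRNAs of the plot where M group replicate 2 is higher still.

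In 5 of the 41 members with a mean above 1 RPM in a group, the RPM of J group replicate 3 exceeded the RPM of the other 5 libraries added together. Of these, mmu-miR-154-3p and mmu-miR-543-3p reached that mean through the J group alone. The share of J group replicate 3 in the summed RPM is given for each. They were mmu-miR-434-3p (51.4%), mmu-miR-379-3p (53.0%), mmu-miR-665-3p (53.6%), mmu-miR-543-3p (68.5%) and mmu-miR-154-3p (74.2%). The last was read 1, 3 and 31 times in J group replicates 1 to 3 and 1, 5 and 4 times in M group replicates 1 to 3. mmu-miR-379-3p had 5, 1 and 25 reads in the J group and 5, 10 and 7 reads in the M group. mmu-miR-665-3p, from the Meg3 side, had 4, 0 and 23 reads against 3, 10 and 9 reads. mmu-miR-543-3p had 1, 0 and 10 reads against 0, 4 and 1 reads. In these last 4 miRNAs the other libraries held 0 to 10 reads, so the size of the difference to J group replicate 3 is poorly known.

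To see how far this went beyond the locus, all miRNAs with a mean above 1 RPM over the other 5 libraries were taken, a choice that does not use J group replicate 3. There were 510 of them, and J group replicate 3 was the highest library in 14.9%. Among the 35 Dlk1-Dio3 miRNAs in this set it was the highest in 28 (80.0%), and among the 475 others in 48 (10.1%). Its level was 2-fold or more above each other library in 15 of the 35 (42.9%) and in 0 of the 475, with 2.94% over all 510. The median ratio of J group replicate 3 to the median of the other 5 libraries was 3.31 for the 35 members and 0.999 for the others. These counts describe a single library, and the members of a locus are not independent of each other.

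The 7 exceptions among the 35 are listed by name. mmu-miR-410-3p was at 3.48, 0.558 and 15.7 RPM in the J group and 7.23, 18.5 and 7.91 RPM in the M group, with M group replicate 2 highest. mmu-miR-377-3p, mmu-miR-382-3p and mmu-miR-496a-3p were also highest in M group replicate 2, and mmu-miR-329-5p and mmu-miR-299a-5p in M group replicate 1. In mmu-miR-377-3p (9.27 against 9.38 RPM) and mmu-miR-382-3p (6.06 against 6.16 RPM), J group replicate 3 was 0.988 and 0.984 times the highest library, which is within counting error. In reads, J group replicate 3 and the highest library had 15 and 15 of mmu-miR-329-5p and 5 and 5 of mmu-miR-299a-5p. They had 5 and 11 of mmu-miR-496a-3p and 44 and 63 of mmu-miR-410-3p. The highest library is thus not settled for these members either. The seventh, mmu-miR-495-3p, was at 0 in J group replicate 3, where 3 reads would be 1.07 RPM.

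**Figure D4:**
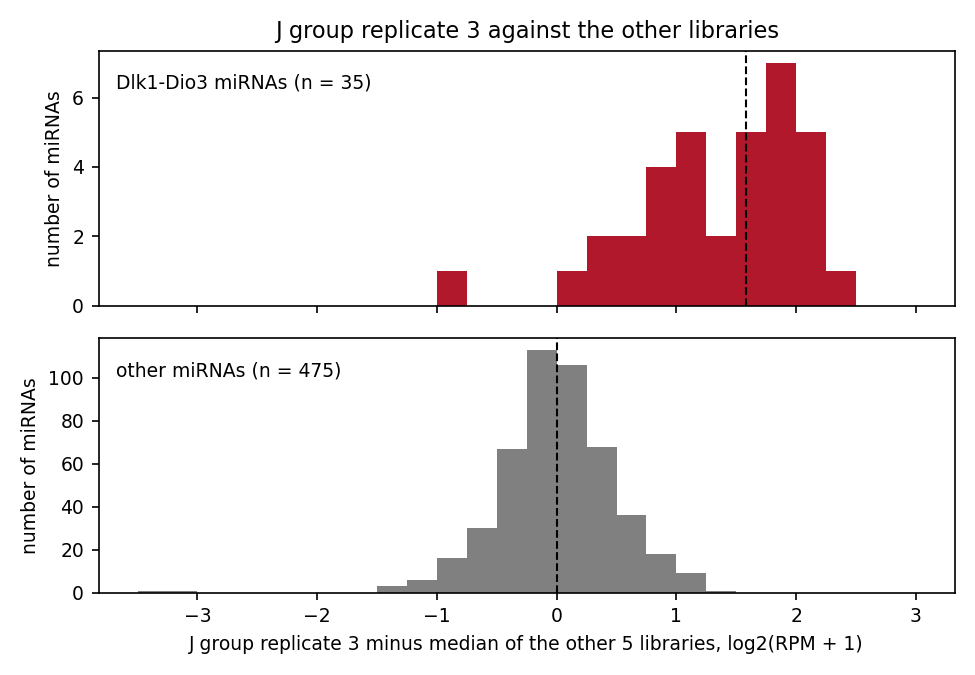
Histogram of the difference between J group replicate 3 and the median of the other 5 libraries on the log2(RPM + 1) scale, for the 35 Dlk1-Dio3 miRNAs (upper panel) and the 475 others (lower panel) with a mean above 1 RPM over those 5 libraries, with dashed medians of 1.59 and 0. Of the 35, 25 lie above 1, against 10 of the 475, and the lone member below 0 is mmu-miR-495-3p.

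The level of the locus moved several-fold between mice, and the shares of its major members moved less. mmu-miR-127-3p held 27.1% to 36.5% of the reads of the locus in the 6 libraries, mmu-miR-409-5p 12.9% to 22.6%, mmu-miR-541-5p 8.52% to 12.0% and mmu-miR-434-5p 4.30% to 7.80%. For 8 of the 10 most abundant members, the share in J group replicate 3 lay inside the range of the other libraries, as for mmu-miR-127-3p (34.8%) and mmu-miR-409-5p (15.9%). It lay above that range for mmu-miR-434-3p (2.10% against 1.27% to 1.55%) and mmu-miR-411-5p (5.57% against 4.78% to 5.49%). The share of mmu-miR-409-3p ranged from 0.423% in J group replicate 2 to 1.40% in M group replicate 3. The 10 most abundant members together held 85.3% to 87.1% in every library. Across the 41 members tested, the correlation of log2(RPM + 1) between any 2 libraries was 0.90 to 0.974 (Pearson, 15 pairs). The points share the hairpins and their differing abundance, so this is a description with no test.

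The use of the hairpin arms, which the choice of members did not involve, was compared where both arms together had at least 10 reads in every library (11 of 22 hairpins with both arms). The 5p arm dominated in Mir541 (99.4% to 100% of the reads of the hairpin over the 6 libraries), Mir379 (93.3% to 98.96%), Mir409 (92.2% to 98.2%), Mir411 (81.5% to 90.1%) and Mir434 (73.5% to 86.0%). The 3p arm dominated in Mir127, where 0.222% to 2.28% of the reads were 5p, in Mir376b (0 to 10.7%) and in Mir299a (6.02% to 20%). In Mir136, Mir382 and Mir329 the side with more reads changed between libraries. Mir329 ranged from 27.3% 5p in J group replicate 2 (95% Wilson interval 9.75% to 56.6%, 11 reads) to 91.7% in J group replicate 1 (64.6% to 98.5%, 12 reads), and these 2 intervals did not overlap. In Mir409, J group replicate 2 was the most 5p library at 98.2% (96.1% to 99.2%), and its interval overlapped that of no other library (92.2% to 94.2%). The libraries compared in Mir329 and Mir409 were picked as extremes after their values were seen, so this is no test of arm use. In J group replicate 3 the 5p share was 1.12% in Mir127 and 92.3% in Mir409, both within the range of the other libraries. It was 93.3% in Mir379, the lowest of the 6, with an interval (90.2% to 95.4%) that overlapped all others. In Mir434 it was 76.9% (73.3% to 80.1%), below the intervals of M group replicate 2 (82.0% to 89.2%) and M group replicate 3 (81.1% to 89.2%).

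The comparison of the J group with the M group asks whether JTXK granule was accompanied by a change in these miRNAs. It was made by limma on log2(RPM + 1) for 548 miRNAs, those averaging above 1 RPM in one group or both, with the thresholds of the study. These were a log2 fold change beyond 0.3 in either direction and a p under 0.05 before adjustment. The added 1 RPM understates the change of rare miRNAs. Of the 62 members, 41 were tested, and the 21 others had at most 5 reads in any library. Of the 41, 6 entered through the J mean alone, with J group replicate 3 the highest library in all 6, and mmu-miR-495-3p entered through the M mean alone. Of all 548 miRNAs, 5.29% passed, with 1.46% higher in the J group and 3.83% lower. Among the 41 members, 0 passed as higher and 1 passed as lower, mmu-miR-495-3p. The median log2 fold change of the members was 0.020, with 21 above and 20 below 0, and that of all 548 miRNAs was -0.13. No member had an adjusted p under 0.05 (limma, Benjamini-Hochberg, smallest 0.71), and 1 of 41 had an unadjusted p under 0.05. Without M group replicate 1 the count of members was also 1, lower in the J group, against 5.84% of all 548 miRNAs (1.82% higher and 4.01% lower). The median without it was -0.19 for the members and -0.081 for all 548. In the 10 most abundant members the log2 fold changes lay between -0.47 (mmu-miR-541-5p) and 0.17 (mmu-miR-434-3p), each smaller than its SE (0.57 to 0.84). With the quasi-likelihood test of edgeR applied to whole reads, 0 of 41 members passed, against 8.21% of the 548 miRNAs (3.28% higher and 4.93% lower). By edgeR and DESeq2, 32 of the 41 members lay above 0, with medians of 0.36 and 0.38, against -0.017 and -0.011 for all 548 miRNAs. The log2 fold change of mmu-miR-127-3p was 0.43 by both, opposite in sign to that of limma.

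mmu-miR-495-3p is one of the miRNAs that the study lists as changed. The 3 J libraries held 3, 1 and 0 of its reads, in the order of the replicates, and the 3 M libraries held 2, 6 and 9. In RPM it was at 0.695, 0.279 and 0 in the J group and 0.762, 1.76 and 2.10 in the M group. Every M library was above every J library, but M group replicate 1, with 2 reads, had fewer reads than J group replicate 1, with 3. The log2 fold change was -0.93 (SE 0.40, adjusted p = 0.71, limma with Benjamini-Hochberg adjustment). The J libraries were all at or under 3 reads, so the size of every fold change of this miRNA is poorly known. This includes those that edgeR and DESeq2 fitted to the reads, given below. The call was lost without J group replicate 2 or 3 and without M group replicate 2 or 3. It was kept without J group replicate 1 (log2 fold change -1.13) and without M group replicate 1 (-1.17). It was also lost with 0.1 RPM (-2.29) or 10 RPM (-0.16) added, with median-of-ratios scaling (-0.88), with edgeR (-1.91) or DESeq2 (-2.01) on the reads, and with mouse names only (-0.93). The direction was the same in each of these.

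The ranges of the 2 groups did not overlap in 2 of the 41 members, against 13.5% of all 548 miRNAs. One was mmu-miR-495-3p. The other was mmu-miR-679-5p, with 2, 4 and 6 reads in the J group and 1, 1 and 0 reads in the M group, and a log2 fold change of 0.82 (SE 0.41, adjusted p = 0.71, limma with Benjamini-Hochberg adjustment). It was among the members tested through the J mean alone.

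Without J group replicate 3, and with the miRNAs to be tested chosen on the remaining 5 libraries, 12 of 35 members passed the thresholds, all lower in the J group, against 6.83% of all 542 miRNAs (1.11% higher and 5.72% lower). With the 548 miRNAs kept it was 12 of 41 members, against 6.93% (1.09% higher and 5.84% lower). Leaving out the highest library of the J group lowers its mean by construction, and the library was chosen for its high values. The 12 were mmu-miR-127-3p, mmu-miR-541-5p, mmu-miR-434-5p, mmu-miR-411-5p, mmu-miR-300-3p, mmu-miR-409-3p, mmu-miR-136-3p, mmu-miR-410-3p, mmu-miR-136-5p, mmu-miR-382-5p, mmu-miR-494-3p and mmu-miR-329-5p. For mmu-miR-127-3p the log2 fold change became -0.97 (SE 0.34), for mmu-miR-541-5p -1.27 (SE 0.39) and for mmu-miR-410-3p -2.09 (SE 0.61). With 2 J libraries left, 0 of the 35 members had an adjusted p under 0.05 (limma, Benjamini-Hochberg, smallest 0.582), and 12 had an unadjusted p under 0.05. The median log2 fold change was -0.75 over these 35 members and -0.20 over all 542 miRNAs. J group replicates 1 and 2 were both below every M library in 22 of the 35 members, against 20.4% of the 510 miRNAs with a mean above 1 RPM over these 5 libraries.

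**Figure D5:**
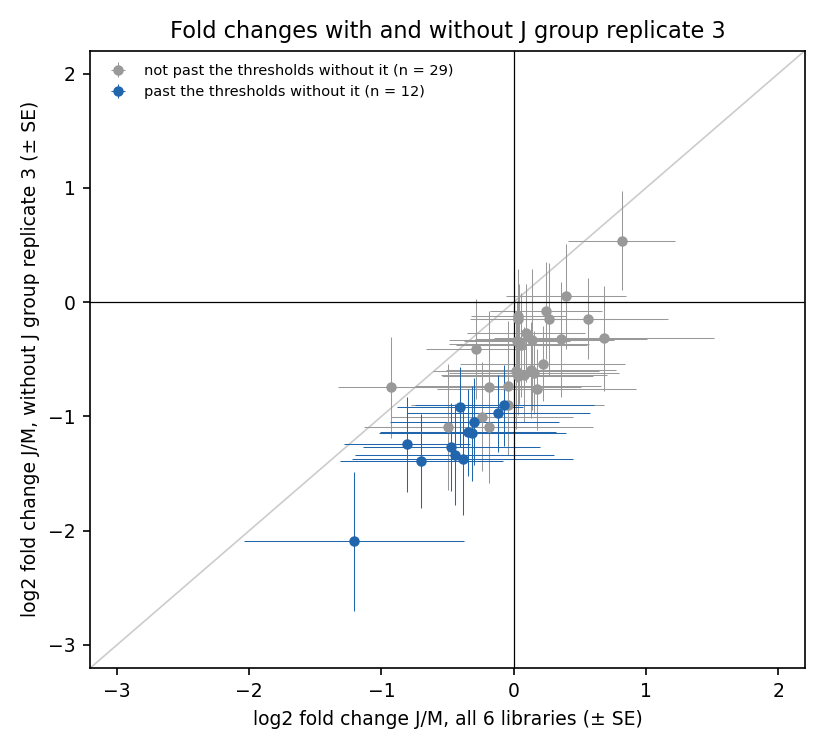
Log2 fold change of J against M (± SE) for the 41 Dlk1-Dio3 miRNAs tested, 6 of them through the J mean alone, with all 6 libraries (x axis) and without J group replicate 3 (y axis), both by limma on the same 548 miRNAs. The points centre on 0.020 along x and on -0.64 along y, and 39 of 41 lie below 0 along y.

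The miRNAs of other cell types were summed in each library beside these results, because liver tissue holds several of them. Fewer cells of a type and less RNA per cell cannot be told apart in whole tissue. In J group replicate 3, 8 of 10 marker lists lay inside the range of the other 5 libraries. The 2 exceptions were at the low end. Brain and neuroendocrine miRNAs (8 of 8 found) summed to 807 RPM against 889.5 to 1777 RPM, and muscle miRNAs to 3.56 RPM against 3.72 to 23.2 RPM, with no entry for miR-133b, miR-208a and miR-208b. Mesenchymal and stellate cell miRNAs (5 of 5 found) summed to 17453 RPM in J group replicate 3, inside the 13968 to 27450 RPM of the others. Within the J group, 4 lists that stayed inside the range were highest in J group replicate 3. Leukocyte miRNAs were at 782, 763 and 1104 RPM in J group replicates 1 to 3, pancreatic miRNAs (4 of 4 found) at 3.71, 3.63 and 6.06 RPM, and red blood cell miRNAs (3 of 3 found) at 4367, 4631 and 6311 RPM. A single read was 0.356 RPM in J group replicate 3. Its muscle and pancreatic sums therefore rest on few reads, and their place among the libraries is poorly known. Bile duct and other epithelial miRNAs (5 of 5 found) were at 961, 1045 and 2398 RPM. In M group replicates 1 to 3 the epithelial miRNAs were at 4336, 2363 and 1212 RPM. The part of these lists in the values of the locus was not tested. On the log2(RPM + 1) scale, J group replicate 3 exceeded the median of the other 5 libraries by 1.13 for mmu-miR-200a-3p, 1.02 for mmu-miR-200b-3p, 1.01 for mmu-miR-200b-5p and 0.93 for mmu-miR-429-3p, but by 0.27 for mmu-miR-200a-5p, 0.089 for mmu-miR-141-3p and -0.076 for mmu-miR-200c-3p.

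Between the groups, 3 marker lists did not overlap. Mesenchymal and stellate cell miRNAs were at 13968 to 18329 RPM in the J group and 18514 to 27450 RPM in the M group. Leukocyte miRNAs (4 of 4 found) were at 763 to 1104 RPM in the J group and 1380.0 to 4791 RPM in the M group. Germline- and testis-linked miRNAs of another cluster were at 28.2 to 65.3 RPM in the J group and 17.0 to 17.9 RPM in the M group. Their part in the values of the Dlk1-Dio3 miRNAs was not tested.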

How the data were processed

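Small RNA libraries were prepared by the authors with the NEBNext multiplex small RNA kit from TRIzol-extracted liver RNA and sequenced on Illumina HiSeq. After filtering, the authors matched unique reads to Rfam and miRBase and deposited the RPM of known and predicted miRNAs, with a total of 1000000 in each library. The 1039 entries include 192 predicted miRNAs and 85 with plant names, which also entered the tests. The submitters' processing notes name mm9. The aligner and the rule for reads with several matches are not given in the sources used here. The table has no coordinates, so positions were taken from RefSeq and GENCODE on GRCm38.

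All RPM values (100%, tolerance 0.02 reads) were whole multiples of the RPM of 1 read, from which reads were recovered. The groups came from the labels, with 3 libraries each. limma 3.58.1 in R 4.3.3 (lmFit, eBayes with a variance trend, two-sided, Benjamini-Hochberg over all miRNAs tested) was fitted to log2(RPM + 1) of the 548 miRNAs with a mean above 1 RPM in a group. The study names no test for these values. An exact permutation test of 3 against 3 was not used, since so small a design cannot pass the threshold. edgeR 4.0.16 and DESeq2 1.42.0 were alternatives, and the fits were tested on simulated data. Values in every library are given for the 10 most abundant members, those past the thresholds, those the study lists as changed and, among those with a mean above 1 RPM in a group, those where 1 library exceeded the summed RPM of the others. Members named outside this rule were chosen after their values were seen. The members and lists were chosen with earlier results of these data known. Where names stated a length, it equalled the RefSeq length in 49 of 49 cases. Python 3.11.15, numpy 2.4.6, pandas 2.3.3, scipy 1.17.1 and matplotlib 3.10.9 were used.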

Additional observations from a re-analysis of the deposited data

How the results depend on the processing

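The count of members past the thresholds was 1 with no filter and with RPM recomputed without the most abundant miRNA. It was 0 with 0.1 or 10 RPM added, a filter at 10 RPM, median-of-ratios scaling, edgeR, DESeq2, mouse names only and the replicate block. It ranged from 0 to 12 when each library was left out, with 12 without J group replicate 3 (12 also with the filter recomputed on the other 5 libraries, an alternative chosen after seeing the data), 2 without J group replicate 1 and 0 without J group replicate 2, M group replicate 2 or M group replicate 3. Over all miRNAs tested, 29 passed (8 higher, 21 lower), 45 by edgeR, 27 with the replicate block, and 21 to 45 with a library left out, the most without M group replicate 2. Median-of-ratios scaling gave 17 higher and 13 lower, with a member median of 0.082.

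The direction of the members moved with the test. edgeR and DESeq2 put 32 of 41 members above 0 (median 0.36 and 0.38, where the median of all miRNAs was -0.017 and -0.011), and 0 of 41 had an unadjusted p under 0.05 by either. By edgeR and DESeq2 in turn, the log2 fold changes turned positive in mmu-miR-127-3p (0.43 and 0.43), mmu-miR-434-5p (0.16 and 0.15), mmu-miR-411-5p (0.45 and 0.45), mmu-miR-300-3p (0.13 and 0.13), mmu-miR-409-3p (0.36 and 0.38), mmu-miR-379-3p (0.67 and 0.70) and mmu-miR-665-3p (0.52 and 0.57). mmu-miR-379-5p was -0.0072 with RPM recomputed without the most abundant miRNA, mmu-miR-411-5p 0.032 under median-of-ratios scaling, mmu-miR-379-3p 0.092 with 10 RPM added and 0.014 under median-of-ratios scaling, and mmu-miR-665-3p 0.063 with 10 RPM added. The cause was not tested.

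When each library was left out in turn, log2 fold changes ranged from -0.97 to 0.35 in mmu-miR-127-3p, -0.63 to 0.50 in mmu-miR-409-5p, -1.27 to 0.015 in mmu-miR-541-5p, -1.34 to 0.24 in mmu-miR-434-5p, -0.64 to 0.45 in mmu-miR-379-5p, -0.90 to 0.37 in mmu-miR-411-5p, -1.14 to 0.17 in mmu-miR-300-3p, -0.62 to 0.69 in mmu-miR-381-3p, -0.76 to 0.66 in mmu-miR-434-3p, -1.37 to 0.40 in mmu-miR-409-3p, -1.17 to -0.75 in mmu-miR-495-3p, -0.32 to 1.33 in mmu-miR-154-3p, -0.90 to 0.57 in mmu-miR-379-3p, -0.32 to 0.77 in mmu-miR-543-3p and -1.09 to 0.51 in mmu-miR-665-3p. The log2 ratio of the summed RPM ranged from -1.004 to 0.68 for all members, -0.92 to 0.91 on the Meg3 side, -1.08 to 0.76 opposite Rtl1, -0.45 to 0.38 in Rian and -0.95 to 0.61 on the Mirg side. Same-numbered libraries did not deviate together (correlations 0.045, 0.058 and -0.0059), and not every library correlated best with its own number, so the numbers name the mice only. Of the 41 members tested, 28 had under 10 reads in some library, and 26 of all 62 were at 0 in some library, which limits the rare members.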

Other observations

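Other miRNAs of chromosome 12 that lie outside the choice of members were read as well, chosen after their values were seen. In each of 9 such miRNAs, from Mir342, Mir345, Mir3071, Mir3072 and Mir1247, J group replicate 3 was not the highest library. Of the 475 miRNAs outside the members with a mean above 1 RPM over the other 5 libraries, it was highest in 10.1%. The result for the 9 is thus near that of miRNAs elsewhere, and it does not mark an edge of the locus. mmu-miR-342-3p, a leukocyte miRNA upstream of Dlk1, was at 242 RPM in J group replicate 3 and 58.6 to 664.6 RPM in the other 5. mmu-miR-345-3p was at 47.4 RPM against 35.8 to 53.3 RPM. mmu-miR-1247-3p, beyond the distal end of the cluster, was at 0.356 RPM against 0.931 to 4.64 RPM. mmu-miR-3071-3p and mmu-miR-3071-5p are read from the strand opposite Mir136, and mmu-miR-3072-3p lies just past Mir410 within Mirg. These miRNAs are thus inside the locus, and they had 0 to 5 reads in every library.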
